A study of Caenorhabditis elegans with 16 samples.

Results

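The insulin-like peptides of Caenorhabditis elegans are small secreted hormones encoded by a large gene family. All genes of the count table whose WBcel235 symbol is ins- followed by a number were taken, together with daf-28, which gave 39 members of 21882 genes. Of these, 33 passed a filter on low counts, among 17844 genes tested. Messenger RNA was measured by RNA sequencing of whole wild-type N2 Bristol nematodes kept on NGM plates at 20 °C. There were 4 groups of 4 libraries: young adults with free access to food, young adults fasted for 6 h, day 8 adults with free access to food, and day 8 adults fasted for 6 h. All groups share the N2 genotype, and none carries a transgene or a drug. Per the series' design text, the study sought genes whose fasting response is present in young and missing in aged animals.

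Insulin-like peptides are made mostly in neurons, the intestine and a few other cells, packed into dense core vesicles, cut from precursors by proprotein convertases and released. They bind DAF-2, the only classical insulin receptor of the worm. Active DAF-2 signals through the PI3 kinase AGE-1 and the AKT kinases to keep the transcription factor DAF-16 out of the nucleus. Some members activate DAF-2 and others antagonise it, so the peptides set larval arrest, stress resistance and lifespan according to food. In whole animals, fewer cells of a type and less RNA per cell cannot be told apart.

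Levels are given as CPM, counts per 1e+06 scaled counts, and library values follow in the order of library numbers 1 to 4. A change was called where the adjusted p of edgeR's quasi-likelihood test was under 0.05. Each fold change is on the log2 scale with its SE. Libraries held 58.4 to 117.7 M counts, where 1 M stands for 1e+06. The labels do not say whether libraries of a group came from separate cultures, so p-values measure only the spread between these libraries. By the well codes in the sample names, the ages were held in different columns of the plate, so an effect of the column and an effect of age cannot be told apart. Fed libraries were held in rows A to D and fasted ones in rows E to H, so an effect of the row and one of fasting cannot be told apart either. Day 8 libraries 3 and 4 stood apart from day 8 libraries 1 and 2 in both feeding states. For 14 of 33 tested members, libraries 3 and 4 were all above libraries 1 and 2, and for 2 (ins-19 and ins-28) all below. The share of all genes split in this way was not counted, so these counts do not set the family apart. Where leaving out either set changed a call, the value without it is given with the member or with the count.

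Lists of markers for tissues were read alongside. Of 10 neuron markers, 0 rose and 1 fell in fasted young adults, and their summed level was 254 to 260 CPM in fed, 268 to 274 CPM in fasted young and 251 to 325 CPM in day 8 libraries. At day 8, 2 of them were higher and 4 lower in fed animals (median log2 fold change -0.30). In fasted animals 2 were higher and 5 lower at day 8 (median -0.75). Of 7 intestine markers, 3 rose and 2 fell in fasted young adults, with sums of 3266 to 3498 CPM fed and 2776 to 2831 CPM fasted, and 591 to 835 CPM at day 8. With age 0 of them were higher, and 6 were lower in fed and 5 in fasted animals. Of 6 germ line and oocyte markers, 4 fell in fasted young adults, with sums of 3889 to 4108 CPM fed and 2665 to 2709 CPM fasted. At day 8 these sums were 3999 to 4436 CPM in libraries 1 and 2 and 2359 to 2695 CPM in libraries 3 and 4. Of 4 muscle markers, 0 were called in fasted young adults and 3 were lower at day 8 in each feeding state, with sums of 8342 to 10720 CPM in young and 339 to 740 CPM in day 8 libraries. Of 4 hypodermis markers, 3 were higher and 1 lower at day 8 in each state, with sums of 95.7 to 120.1 CPM in young and 135.2 to 154 CPM in day 8 libraries. Of 6 embryo markers, 4 were higher at day 8 in fed and 5 in fasted animals. Their sums were 0.922 to 1.63 CPM in young and 47.2 to 110.8 CPM in day 8 libraries, with 47.2 to 53.0 CPM in day 8 libraries 1 and 2 and 81.4 to 110.8 CPM in libraries 3 and 4. No marker of these lists was at 0 in all libraries of a group. The part of any of them in the results below was not tested.

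The family as a whole was a minor share of the transcriptome, and its summed level was higher in fasted than in fed young adults. Summed over 39 members, its level was 38.5 ± 0.477 CPM in fed young, 53.0 ± 0.953 CPM in fasted young, 61.95 ± 16.2 CPM in fed day 8 and 66.06 ± 14.5 CPM in fasted day 8 libraries (SD, n = 4). The fasted young libraries (52.0 to 53.8 CPM) lay above all fed young libraries (38.01 to 39.1 CPM). Day 8 libraries spread from 45.8 to 79.8 CPM. Per length of exon, the family summed to 73.5 ± 1.52 CPM per kb in fed young, 96.0 ± 2.68 in fasted young, 126.7 ± 30.9 in fed day 8 and 135.2 ± 29.5 in fasted day 8 libraries.

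Which peptides made up that sum differed between groups. Per length, the leading members of fed young adults were ins-27 with 13.4 ± 2.64% of the family, ins-17 with 12.1 ± 0.314%, daf-28 with 8.70 ± 0.685% and ins-6 with 6.74 ± 0.564%. In fasted young adults ins-17 held 17.9 ± 0.823% and ins-37 held 11.1 ± 0.615%, while ins-27 held 6.60 ± 0.551%. At day 8 the leaders were ins-2 (14.7 ± 4.89% fed, 16.8 ± 1.88% fasted), ins-34 (12.55 ± 0.411% and 11.3 ± 1.69%), ins-22 (10.8 ± 0.456% and 9.19 ± 1.93%) and ins-7 (8.13 ± 3.26% and 10.4 ± 2.14%). The 5 leading members held 46.0% of the family in fed young, 46.1% in fasted young, 52.6% in fed day 8 and 54.6% in fasted day 8 animals.

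**Figure D1:**
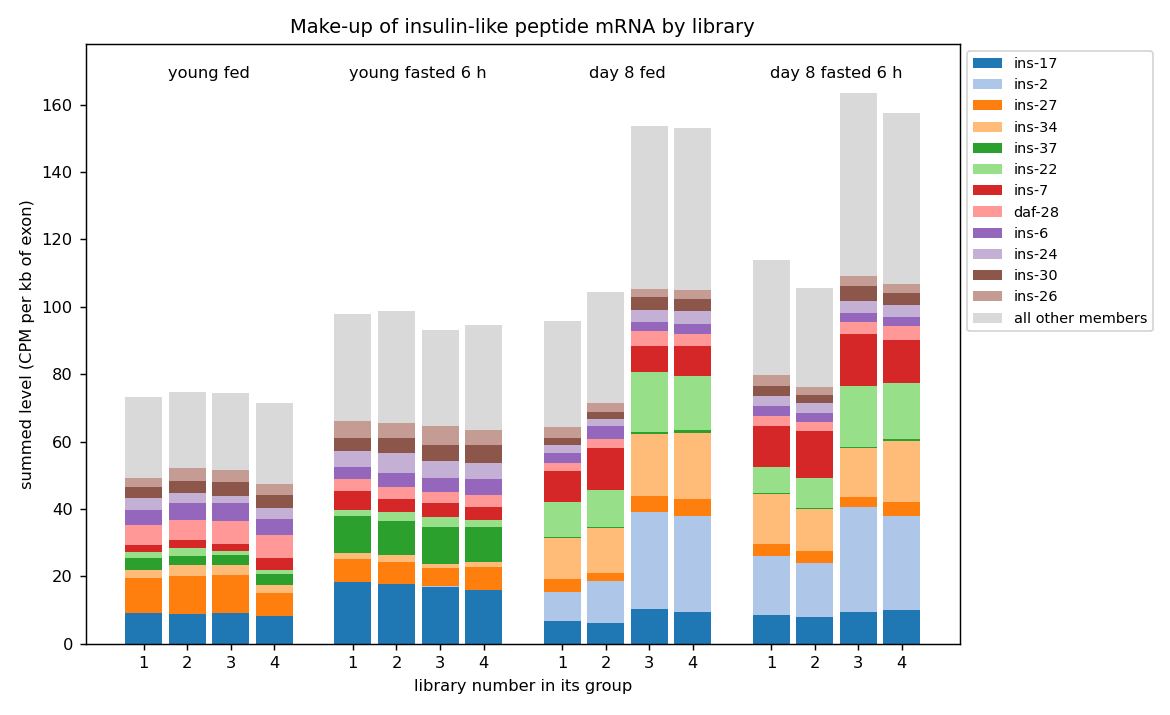
Summed level of all 39 members per library in CPM per kb of exon, with the members that rank among the 5 highest of any group in colour and all others in grey. The colours of ins-2, ins-34 and ins-22 are wider in the day 8 bars than in the young ones, and that of ins-37 is widest in fasted young adults.

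In young adults, 6 h of fasting changed 14 of 33 tested members, with 9 higher and 5 lower. Over all 17844 tested genes, 21.2% rose and 21.1% fell, against 27.3% and 15.2% of the members. The median log2 fold change was 0.40 over members and 0.03 over all genes. In 12 members every fasted library lay above every fed one and in 4 below, where 31.8% and 31.6% of all genes did so. The members that rose were ins-7, ins-10, ins-17, ins-20, ins-23, ins-24, ins-26, ins-35 and ins-37, and those that fell were daf-28, ins-27, ins-32, ins-33 and ins-34. With a term for the split among day 8 libraries, 14 members rose and 5 fell, and the additional calls were ins-1, ins-5, ins-18, ins-22 and ins-28. Calls also increased over all 17844 genes with that term, from 3790 to 5965 higher and from 3767 to 5904 lower. The replicate block within each age gave 13 members higher and 5 lower, and 5800 of all genes higher and 5821 lower. Scaling to library totals alone, which moved the median of all genes from 0.03 to 0.24, gave 11 members higher and 3 lower, and no called member changed sign. Over all genes it gave 5461 higher and 2582 lower.

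At day 8 the same fast changed 0 members, and 0.151% of all genes rose and 0.219% fell. The count over all genes, 27 higher and 39 lower, depended on how the split among day 8 libraries was handled. It was 224 and 614 with the term for libraries 3 and 4, and 167 and 347 with the replicate block within each age. Without libraries 1 and 2 it was 369 and 1243, without 3 and 4 97 and 231, and in the 8 day 8 libraries alone 0 and 4. Calls among members stayed at 0 in each. By unadjusted p under 0.05 there were 2 members higher (ins-7 and ins-8) and 0 lower, and DESeq2 also called 0. The median log2 fold change of members was 0.03. A single member, ins-9, had all fasted libraries below all fed ones and 0 had them above, where 1.13% and 1.15% of all genes did so. By library number, the fasted library was higher in all 4 pairs for 3 tested members (ins-7, ins-8 and ins-30). It was lower in all 4 pairs for 3 others (ins-4, ins-9 and ins-19). The share of all genes with such pairs was not counted.

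The fasting response itself differed between the ages for 6 members. It was higher in young adults for ins-17, ins-20, ins-23 and ins-37 and lower for daf-28 and ins-32, where 13.43% of all genes were called higher and 12.63% lower. The replicate block within each age, which takes up the pairing seen at day 8, gave 9 higher and 4 lower, as did a term for day 8 libraries 3 and 4. Calls over all 17844 genes also increased, from 2396 higher and 2254 lower to 4204 and 4847 with the block. With the term they were 4461 and 4937. The additional calls with the block were ins-1 (log2 0.56, adjusted p = 0.048), ins-4 (0.60, adjusted p = 0.0379), ins-22 (0.70, adjusted p = 0.0443), ins-24 (0.69, adjusted p = 0.0428) and ins-35 (2.32, adjusted p = 0.00766) among those higher in young adults. Among those lower they were ins-33 (-1.84, adjusted p = 0.00293) and ins-34 (-0.80, adjusted p = 0.00781). DESeq2 gave 5 members higher and 4 lower, and 2976 of all genes higher and 2718 lower.

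**Figure D2:**
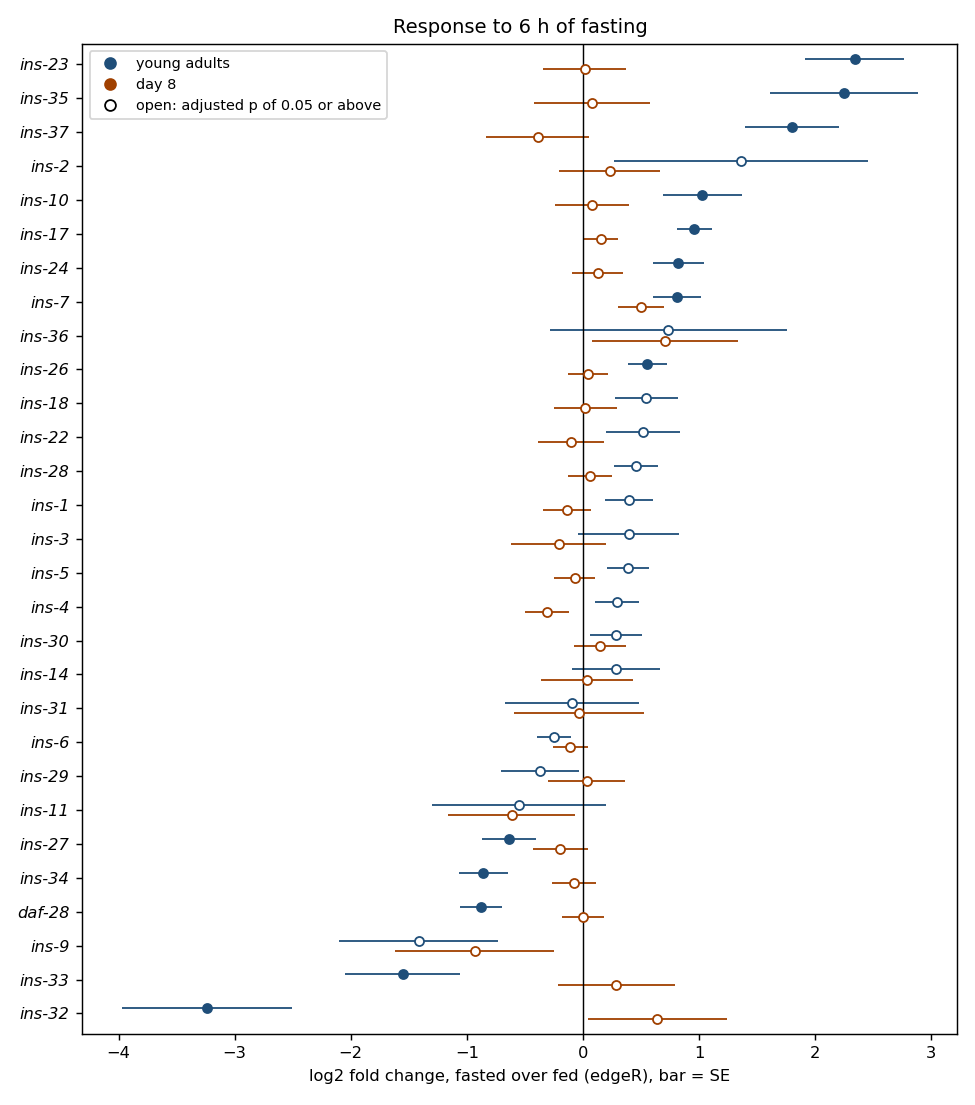
Log2 fold change of fasted over fed animals with its SE for 29 tested members, young adults in blue and day 8 in brown, with filled points called. The members with at most 3 counts over all 4 libraries of a group (ins-8, ins-19, ins-20 and ins-39) are left out. Filled points appear in young adults alone, from ins-32 at -3.24 to ins-23 at 2.34.

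More members were called with age than with fasting, and the same held over all genes, so this does not set the family apart. In fed animals 13 were higher and 7 lower at day 8 than in young adults, against 30.8% higher and 34.7% lower of all genes. In fasted animals 12 were higher and 10 lower, against 31.2% and 36.9%. Day 8 libraries lay entirely above young ones for 12 members and entirely below for 9 in fed animals, where 27.7% and 34.2% of all genes did so. In fasted animals these were 9 and 10 members, where 28% and 36.6% of all genes did so. There were 10 members higher at day 8 in both feeding states (ins-2, ins-3, ins-7, ins-8, ins-11, ins-19, ins-22, ins-23, ins-34 and ins-36), and 4 were lower in both (ins-6, ins-14, ins-27 and ins-37). Of the higher ones, ins-2, ins-8, ins-11, ins-19 and ins-36 had young group means of at most 0.0688 CPM. They passed the filter on low counts only through their day 8 libraries, so their calls are not independent of that filter. The medians over members were 0.06 fed and -0.17 fasted, beside -0.01 and -0.05 over all genes. Library totals alone moved the median of all genes to 0.51 fed and 0.28 fasted and gave 17 higher and 3 lower, and 13 higher and 4 lower, with no called member changing sign. Without day 8 libraries 3 and 4 the fed comparison gave 11 higher and 11 lower, and without day 8 libraries 1 and 2 it gave 17 higher and 6 lower. The fasted comparison gave 9 higher and 15 lower without libraries 3 and 4, and 13 higher and 7 lower without libraries 1 and 2. Over all genes, library totals alone gave 9410 higher and 4118 lower in fed, and 7950 and 5045 in fasted animals. Without libraries 3 and 4 these counts were 6494 and 6872 in fed, and 6456 and 7520 in fasted animals. Without libraries 1 and 2 they were 7278 and 7022 in fed, and 7011 and 7074 in fasted animals. Each age comparison shares a group with each fasting comparison, so their values are not independent.

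**Figure D3:**
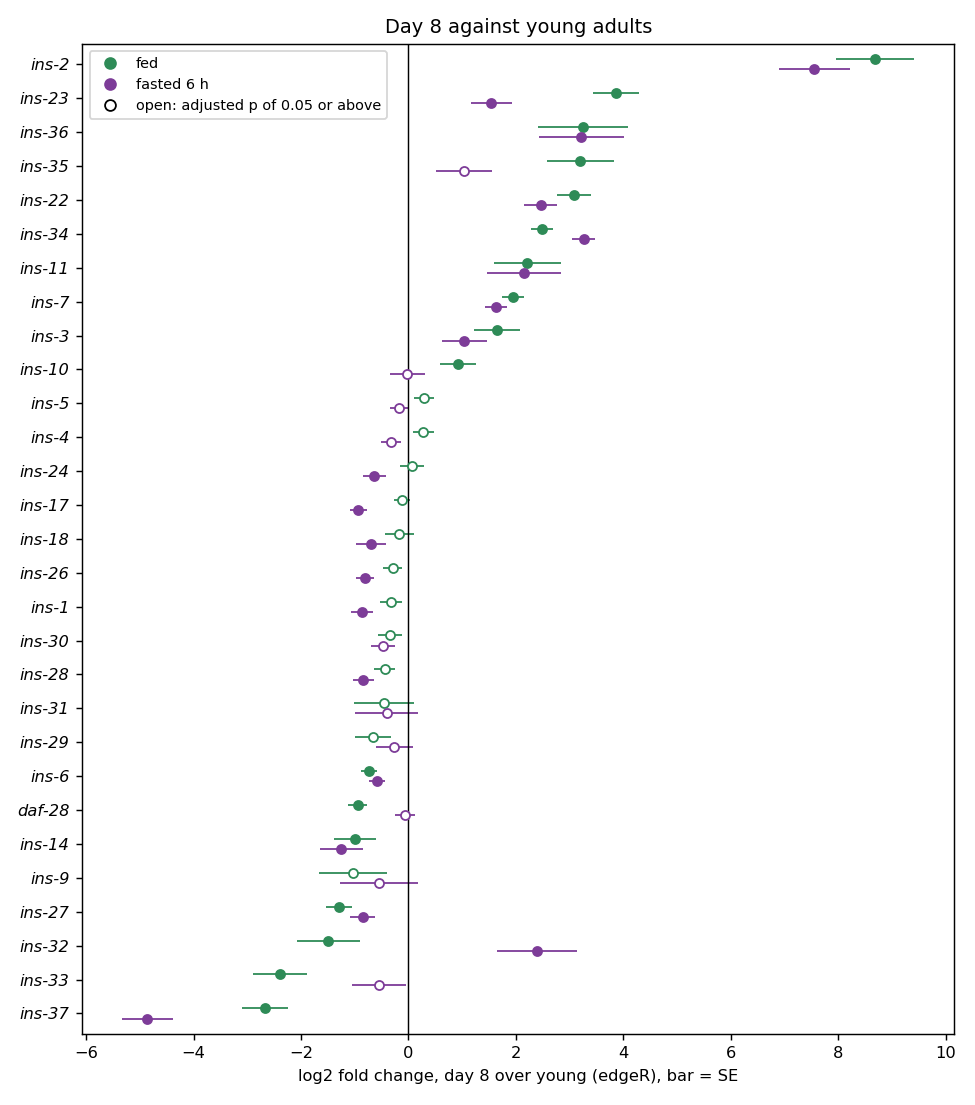
Log2 fold change of day 8 over young animals with its SE for 29 tested members, fed animals in green and fasted animals in purple, with filled points called. Values run from -4.86 for ins-37 in fasted animals to 8.68 for ins-2 in fed animals, and ins-32 has filled points on both sides of 0.

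Among the peptides known to activate DAF-2, daf-28 fell with fasting. It encodes a peptide of sensory neurons whose reporter is known to fall in starvation and under dauer pheromone. The gene (daf-28, WBGene00000920, chromosome V, 19815133 to 19816454) stood at 4.62, 4.59, 5.19 and 5.17 CPM in the fed and 2.69, 2.72, 2.498 and 2.72 CPM in the fasted young libraries. The groups did not overlap, and the log2 change was -0.88 ± 0.18, adjusted p = 0.00103. Its day 8 values were 1.97, 1.96, 3.30 and 2.90 CPM in the fed and 2.23, 2.09, 2.64 and 3.17 CPM in the fasted day 8 libraries, with libraries 3 and 4 above libraries 1 and 2 in both states. The log2 fasting change there was -0.00027 ± 0.18, adjusted p = 1, and the log2 difference between ages was -0.88 ± 0.25, adjusted p = 0.0177. That difference was not called without day 8 fasted library 3 or 4 or under library totals alone (log2 -0.83 to -0.68, adjusted p = 0.0558 to 0.157). In fed animals daf-28 was lower at day 8 (log2 -0.95 ± 0.18, adjusted p = 2.39e-04, not called under library totals alone, log2 -0.39, adjusted p = 0.156), whereas in fasted animals the log2 change was -0.07 ± 0.18, adjusted p = 0.756. Without day 8 libraries 3 and 4 the fasted change was called lower (log2 -0.31, adjusted p = 0.0366).

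The dauer exit peptide gene ins-6 (WBGene00002089, chromosome II, 6000436 to 6001009) stood at 2.27, 2.68, 2.82 and 2.53 CPM in the fed and 1.92, 2.12, 2.16 and 2.47 CPM in the fasted young libraries, a log2 fasting change of -0.25 ± 0.15, adjusted p = 0.188, which was not called. In day 8 animals it stood at 1.43, 1.93, 1.38 and 1.47 CPM in the fed and 1.59, 1.41, 1.47 and 1.29 CPM in the fasted day 8 libraries. Every day 8 library lay below every young library of its feeding state, with log2 changes of -0.73 ± 0.15, adjusted p = 4.70e-04 in fed and -0.59 ± 0.15, adjusted p = 0.00265 in fasted animals. Neither was called under library totals alone (log2 -0.21, adjusted p = 0.227 and -0.27, adjusted p = 0.129). Its neighbour ins-4 (WBGene00002087, chromosome II, 5996366 to 5997008), a further activating peptide, stood at 1.52, 1.44, 1.47 and 1.39 CPM in the fed and 1.83, 1.93, 1.34 and 2.04 CPM in the fasted young libraries. Levels at day 8 were 1.73, 1.43, 2.10 and 1.79 CPM in the fed and 1.21, 1.09, 1.81 and 1.58 CPM in the fasted day 8 libraries. The groups overlapped at both ages, and it was called in no comparison of the fit without a block (log2 0.29 ± 0.19, adjusted p = 0.229 for fasting in young adults, and 0.60 ± 0.27, adjusted p = 0.114 for the difference between ages). The difference was called without day 8 libraries 3 and 4 or under the replicate block within each age or a term for day 8 libraries 3 and 4 (log2 0.60 to 0.77, adjusted p = 0.0205 to 0.0379). In fasted animals it was called lower at day 8 without day 8 libraries 3 and 4 or under a term for day 8 libraries 3 and 4 (log2 -0.64 to -0.35, adjusted p = 0.00965 to 0.0405). In fed animals it was called higher at day 8 without day 8 libraries 1 and 2 or under library totals alone (log2 0.52 to 0.82, adjusted p = 0.00609 to 0.0138). Another neighbour, ins-5 (WBGene00002088, chromosome II, 5997557 to 5999023), stood at 1.06, 1.43, 0.946 and 1.00 CPM in the fed and 1.29, 1.44, 1.40 and 1.67 CPM in the fasted young libraries. Levels at day 8 were 1.28, 1.17, 1.62 and 1.33 CPM in the fed and 1.36, 1.06, 1.41 and 1.31 CPM in the fasted day 8 libraries. Its groups overlapped too, and it was called in none (log2 0.39 ± 0.18, adjusted p = 0.0917 for fasting in young adults). That change was called without young fed library 2 or under library totals alone or a term for day 8 libraries 3 and 4 (log2 0.39 to 0.60, adjusted p = 0.0347 to 0.0453). The fed change with age was called without day 8 libraries 1 and 2 or under library totals alone or DESeq2 (log2 0.41 to 0.83, adjusted p = 0.0025 to 0.045), against 0.29 ± 0.18, adjusted p = 0.168 in the fit of all libraries.

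The gene ins-7 (WBGene00002090, chromosome IV, 9682011 to 9682845) encodes an activating peptide of intestine and neurons that DAF-16 is known to repress. In young adults it stood at 0.895, 0.965, 0.878 and 1.48 CPM in the fed and 2.39, 1.66, 1.81 and 1.55 CPM in the fasted young libraries. Every fasted library lay above every fed one, with a log2 change of 0.81 ± 0.21, adjusted p = 0.00501. Day 8 values were 3.87, 5.30, 3.36 and 3.70 CPM in the fed and 5.15, 5.87, 6.52 and 5.41 CPM in the fasted day 8 libraries. The fasted library was higher in all 4 numbered pairs, yet the log2 change of 0.50 ± 0.20, adjusted p = 0.684 was not called, and neither was it with the replicate block within each age (log2 0.52, adjusted p = 0.159). Its level was higher at day 8 in fed (log2 1.95 ± 0.21, adjusted p = 5.66e-07) and fasted animals (log2 1.63 ± 0.20, adjusted p = 2.88e-06).

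Of the other activating peptides, ins-35 rose and ins-33 fell with fasting in young adults. The intestinal peptide gene ins-35 (WBGene00002118, chromosome V, 20375536 to 20376302) stood at 0.0639, 0, 0.0270 and 0.131 CPM in the fed and 0.269, 0.151, 0.217 and 0.397 CPM in the fasted young libraries, a log2 change of 2.25 ± 0.64, adjusted p = 0.0102. Without fed library 4 the log2 change was 3.08, adjusted p = 0.00305. At day 8 it stood at 0.490, 0.335, 0.664 and 0.527 CPM in the fed and 0.559, 0.232, 0.585 and 0.750 CPM in the fasted day 8 libraries, which is above all young fed libraries (log2 3.20 ± 0.62, adjusted p = 2.85e-04 in fed and 1.03 ± 0.53, adjusted p = 0.0935 in fasted animals). The latter was called without day 8 fasted library 2, without day 8 libraries 1 and 2 or under library totals alone, the replicate block over all libraries or within each age or DESeq2 (log2 1.02 to 1.44, adjusted p = 0.0194 to 0.0409). The log2 difference between the fasting responses was 2.17 ± 0.81, adjusted p = 0.0608. It was called without young fed library 4, day 8 fed library 2 or day 8 fasted library 4, without day 8 libraries 1 and 2 or under counts divided by 2, the replicate block over all libraries or within each age, a term for day 8 libraries 3 and 4 or DESeq2 (log2 2.11 to 3.00, adjusted p = 0.00766 to 0.0497).

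The gene ins-33 (WBGene00002116, chromosome I, 13637845 to 13639311), whose peptide promotes proliferation of the larval germ line, stood at 1.90, 1.61, 1.96 and 1.71 CPM in the fed and 0.824, 0.491, 0.462 and 0.667 CPM in the fasted young libraries. The groups did not overlap, with a log2 change of -1.55 ± 0.50, adjusted p = 0.02. The call was lost without young fasted library 2 or 3 or under library totals alone (log2 -1.47 to -1.35, adjusted p = 0.0547 to 0.064). Its day 8 values were 0.131, 0.173, 0.497 and 0.535 CPM in the fed and 0.313, 0.0819, 0.685 and 0.570 CPM in the fasted day 8 libraries, and libraries 3 and 4 were above libraries 1 and 2. It was lower at day 8 in fed animals (log2 -2.39 ± 0.51, adjusted p = 6.35e-04), and the log2 change in fasted animals was -0.55 ± 0.51, adjusted p = 0.347, called with the replicate block within each age (log2 -0.81, adjusted p = 0.0269). Without day 8 libraries 3 and 4 these were -3.52, adjusted p = 1.62e-06 and -1.63, adjusted p = 0.00235. The log2 difference between the fasting responses was -1.84 ± 0.71, adjusted p = 0.068. It was called without day 8 fasted library 2, without either set of day 8 libraries or under the replicate block over all libraries or within each age, a term for day 8 libraries 3 and 4 or DESeq2 (log2 -2.17 to -1.81, adjusted p = 6.11e-04 to 0.0446).

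The gene ins-3 (WBGene00002086, chromosome II, 5990099 to 5990768), which acts with ins-33 on the germ line, stood at 0.719, 0.922, 0.986 and 0.656 CPM in the fed and 1.46, 0.624, 1.28 and 0.950 CPM in the fasted young libraries and did not change on fasting by the test (log2 0.39 ± 0.43, adjusted p = 0.486). In day 8 animals it stood at 1.14, 1.45, 3.79 and 3.88 CPM in the fed and 1.51, 1.19, 3.22 and 2.95 CPM in the fasted day 8 libraries, with libraries 3 and 4 of either state well above libraries 1 and 2. The day 8 level was higher in fed (log2 1.64 ± 0.43, adjusted p = 0.00335) and fasted animals (log2 1.04 ± 0.42, adjusted p = 0.0404), and without libraries 3 and 4 these were 0.67, adjusted p = 0.0502 and 0.31, adjusted p = 0.346. The fasted call was also lost without young fed library 1, 2 or 3, young fasted library 2, 3 or 4 or day 8 fasted library 3 or 4 or without day 8 libraries 3 and 4 (log2 0.31 to 1.13, adjusted p = 0.05 to 0.346).

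Over the list of 8 activating peptides (daf-28, ins-3, ins-4, ins-6, ins-7, ins-9, ins-33 and ins-35), 2 rose and 2 fell in fasted young adults, with a median log2 fold change of 0.02. Over the list of 3 antagonists, 1 rose and 2 were not called. In the same comparison 21.2% of all genes rose and 21.1% fell.

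The antagonist gene ins-17 (WBGene00002100, chromosome III, 4476918 to 4477572), whose peptide promotes dauer arrest, rose with fasting. It stood at 5.07, 4.94, 5.07 and 4.66 CPM in the fed and 10.1, 9.96, 9.46 and 8.82 CPM in the fasted young libraries, with no overlap and a log2 change of 0.96 ± 0.15, adjusted p = 8.88e-05. Day 8 values were 3.83, 3.36, 5.69 and 5.22 CPM in the fed and 4.78, 4.49, 5.32 and 5.53 CPM in the fasted day 8 libraries, and the log2 fasting change was 0.15 ± 0.15, adjusted p = 1. The log2 difference between the ages was 0.81 ± 0.21, adjusted p = 0.00947. Fasted day 8 animals held less than fasted young animals (log2 -0.93 ± 0.15, adjusted p = 4.57e-05). The fed log2 change with age was -0.12 ± 0.15, adjusted p = 0.485, and it went both ways with the set of day 8 libraries, at -0.45, adjusted p = 0.00102 without libraries 3 and 4 and 0.25, adjusted p = 0.0235 without libraries 1 and 2.

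The other antagonists, ins-1 and ins-18, had fasted young libraries above all fed ones without a call. The gene ins-1 (WBGene00002084, chromosome IV, 10436701 to 10438412), which acts in salt learning, stood at 1.39, 1.24, 1.57 and 1.67 CPM in the fed and 1.85, 1.83, 2.20 and 1.86 CPM in the fasted young libraries (log2 0.40 ± 0.21, adjusted p = 0.132). The gene ins-18 (WBGene00002101, chromosome I, 8147427 to 8149651) stood at 1.55, 1.04, 1.18 and 1.85 CPM in the fed and 2.25, 1.98, 1.95 and 2.00 CPM in the fasted young libraries (log2 0.55 ± 0.27, adjusted p = 0.119). With the replicate block within each age both were called, at 0.40, adjusted p = 0.0351 for ins-1 and 0.57, adjusted p = 0.00868 for ins-18. Both were also called in the 8 young libraries alone, at 0.42, adjusted p = 0.0194 for ins-1 and 0.57, adjusted p = 0.0102 for ins-18. They were called as well without day 8 libraries 3 and 4, at 0.42, adjusted p = 0.0226 and 0.57, adjusted p = 0.0122. Without libraries 1 and 2 the values were 0.41, adjusted p = 0.0199 and 0.56, adjusted p = 0.0109.

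At day 8 ins-1 stood at 0.980, 1.01, 1.40 and 1.28 CPM in the fed and 0.790, 0.806, 1.26 and 1.38 CPM in the fasted day 8 libraries. Levels of ins-18 were 0.896, 0.925, 1.48 and 1.66 CPM in the fed and 0.872, 0.901, 1.58 and 1.68 CPM in the fasted day 8 libraries. Libraries 3 and 4 were above libraries 1 and 2 for both genes in each state, and fed and fasted libraries overlapped. Fasted animals held less of both at day 8 (log2 -0.87 ± 0.21, adjusted p = 0.0017 and -0.70 ± 0.27, adjusted p = 0.0331), and ins-1 was not called under library totals alone (log2 -0.50, adjusted p = 0.106). The call of ins-18 was lost without young fasted library 1, 2 or 4, day 8 fed library 3 or 4 or day 8 fasted library 1 or 2, without day 8 libraries 1 and 2 or under RLE scaling, library totals alone, no filter or DESeq2 (log2 -0.71 to -0.24, adjusted p = 0.0503 to 0.393). In fed animals neither changed with age by the test, and without day 8 libraries 3 and 4 both were called lower, ins-1 at -0.55, adjusted p = 0.0164 and ins-18 at -0.60, adjusted p = 0.027. The log2 difference between the fasting responses of ins-1 was 0.54 ± 0.29, adjusted p = 0.195. It was called without day 8 libraries 3 and 4 or under the replicate block within each age or a term for day 8 libraries 3 and 4 (log2 0.56 to 0.74, adjusted p = 0.0246 to 0.048).

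**Figure D4:**
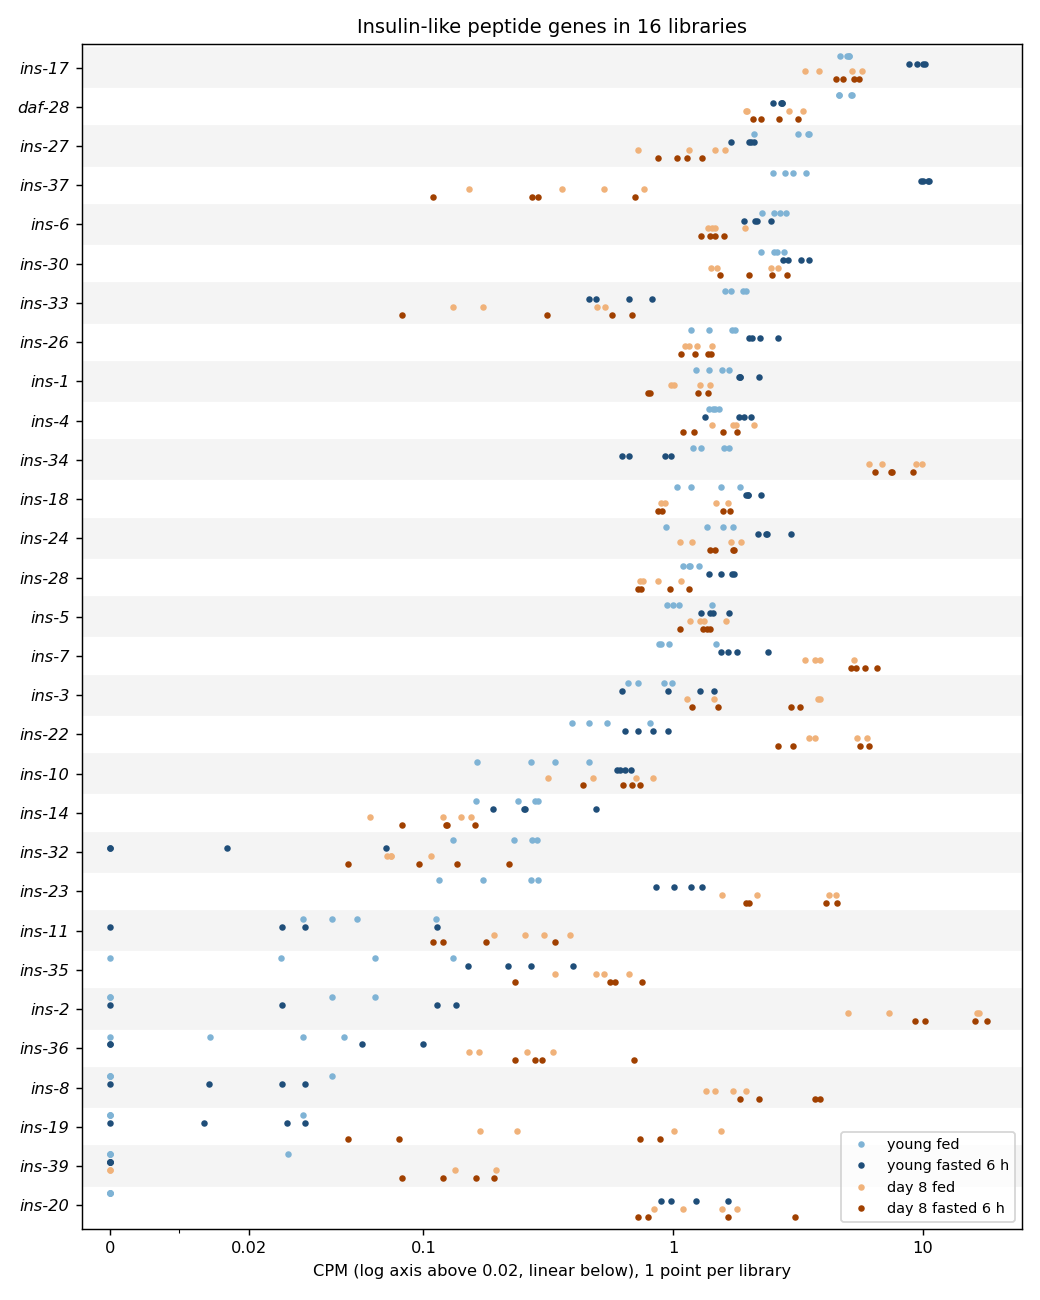
CPM of 30 members in 16 libraries, 1 point per library, coloured by group, on an axis that is linear below 0.02 CPM and logarithmic above. Members are ordered by their mean in fed young adults, from ins-20 at 0 to ins-17, and the fed young points of ins-2, ins-8, ins-19 and ins-20 lie below 0.1 CPM while all or most of their day 8 points lie above it.

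Of the remaining peptides, which were not on these lists, ins-20 had no counts in fed young libraries. The gene ins-20 (WBGene00002103, chromosome II, 6010844 to 6011321) was at 0 in all 4 of them, and fasted young libraries stood at 0.891, 1.66, 1.24 and 0.979 CPM. Against 3 counts over the fed group, the fasted level was at least 106-fold higher. At day 8 it stood at 0.837, 1.10, 1.80 and 1.56 CPM in the fed and 0.790, 0.724, 3.06 and 1.66 CPM in the fasted day 8 libraries, in fed animals at least 118-fold above the fed young level by the same floor. Both were called (adjusted p = 6.27e-06 and 1.72e-06), and the fasting change at day 8 was 0.23 ± 0.43, adjusted p = 1. The difference between the responses was called too (adjusted p = 7.27e-05). In fasted animals the log2 change with age was 0.39 ± 0.44, adjusted p = 0.446. Day 8 libraries 3 and 4 lay above libraries 1 and 2, and without the latter that change was called (log2 1.07, adjusted p = 0.00611).

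The genes ins-22 and ins-23 lie next to each other. In young adults ins-23 (WBGene00002106, chromosome III, 10028247 to 10028697) stood at 0.288, 0.173, 0.270 and 0.115 CPM in the fed and 1.18, 1.30, 1.00 and 0.851 CPM in the fasted young libraries, a log2 rise of 2.34 ± 0.43, adjusted p = 3.78e-04. Its day 8 values were 1.57, 2.15, 4.22 and 4.48 CPM in the fed and 1.96, 2.01, 4.53 and 4.08 CPM in the fasted day 8 libraries, where the log2 fasting change was 0.02 ± 0.36, adjusted p = 1, and the log2 difference between ages was 2.32 ± 0.56, adjusted p = 0.00543. The gene ins-22 (WBGene00002105, chromosome III, 10026289 to 10026686), whose peptide serves as a reporter of dense core vesicles, stood at 0.544, 0.807, 0.392 and 0.459 CPM in the fed and 0.639, 0.832, 0.950 and 0.723 CPM in the fasted young libraries without a call (log2 0.51 ± 0.32, adjusted p = 0.206, and 0.55, adjusted p = 0.0382 with the replicate block within each age). In day 8 animals it stood at 3.49, 3.71, 5.97 and 5.45 CPM in the fed and 2.63, 3.02, 6.08 and 5.59 CPM in the fasted day 8 libraries. Both were higher at day 8, ins-22 by log2 3.08 ± 0.32, adjusted p = 4.46e-07 in fed and 2.46 ± 0.31, adjusted p = 3.63e-06 in fasted animals, and ins-23 by 3.87 ± 0.43, adjusted p = 9.50e-07 and 1.54 ± 0.37, adjusted p = 0.00186. Libraries 3 and 4 held the higher day 8 values of both, and without them the fasted changes were 1.83, adjusted p = 3.08e-06 for ins-22 and 0.87, adjusted p = 0.00666 for ins-23. The young fasting change of ins-22 was called without either set of day 8 libraries or under the replicate block within each age or a term for day 8 libraries 3 and 4 (log2 0.52 to 0.55, adjusted p = 0.0364 to 0.048). The log2 difference between ages of ins-22 was 0.62 ± 0.43, adjusted p = 0.315. This difference was called without day 8 libraries 3 and 4 or under the replicate block within each age or a term for day 8 libraries 3 and 4 (log2 0.67 to 0.89, adjusted p = 0.0396 to 0.0465).

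Of the 6 embryo markers, 1 rose, 1 fell and 4 were not called in fasted young adults, with a median log2 fold change of -0.38, and their summed level overlapped between fed (1.36 to 1.60 CPM) and fasted (0.922 to 1.63 CPM) young libraries. The one that fell was pes-10 (log2 -1.29 ± 0.24, adjusted p = 4.70e-04). The one that rose was the hatching protease gene hch-1, which stood at 0.0799, 0.0288, 0 and 0.0164 CPM in fed young and at 0.420, 0.643, 0.339 and 0.312 CPM in fasted young libraries (log2 3.74 ± 0.93, adjusted p = 0.00426). At day 8 it was at 28.03 to 34.5 CPM in libraries 1 and 2 and 64.3 to 90.9 CPM in libraries 3 and 4. The part of embryos inside the animals in these results was not tested.

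The gene ins-37 (WBGene00002120, chromosome II, 13835101 to 13836107) rose in fasted young adults and was low at day 8. It stood at 3.39, 2.51, 2.80 and 3.02 CPM in the fed and 10.5, 9.77, 10.5 and 10.0 CPM in the fasted young libraries, a log2 rise of 1.80 ± 0.40, adjusted p = 0.00208. Day 8 values were 0.359, 0.152, 0.530 and 0.765 CPM in the fed and 0.109, 0.273, 0.286 and 0.700 CPM in the fasted day 8 libraries, with a log2 fasting change of -0.39 ± 0.44, adjusted p = 1 and a log2 difference between ages of 2.19 ± 0.60, adjusted p = 0.0127. It was lower at day 8 in fed (log2 -2.67 ± 0.43, adjusted p = 5.09e-05) and fasted animals (log2 -4.86 ± 0.47, adjusted p = 1.81e-07), with no overlap. Its exons overlap the snRNA gene F08G2.9 on the same strand by 171 bases and the ncRNA gene R05D7.8 on the other strand by 192 bases, so its counts are uncertain.

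Also higher in fasted young adults were ins-10, ins-24 and ins-26. The gene ins-10 (WBGene00002093, chromosome V, 14033949 to 14034396) stood at 0.336, 0.461, 0.270 and 0.164 CPM in the fed and 0.639, 0.680, 0.611 and 0.596 CPM in the fasted young libraries (log2 1.03 ± 0.34, adjusted p = 0.0235). The call was lost without young fed library 3 or 4 or young fasted library 2 (log2 0.83 to 0.99, adjusted p = 0.0505 to 0.0735). The gene ins-24 (WBGene00002107, chromosome I, 14031147 to 14031667) stood at 1.73, 1.37, 0.932 and 1.58 CPM in the fed and 2.19, 2.97, 2.36 and 2.37 CPM in the fasted young libraries (log2 0.82 ± 0.22, adjusted p = 0.00734). The gene ins-26 (WBGene00002109, chromosome I, 14037151 to 14037777) stood at 1.18, 1.77, 1.72 and 1.39 CPM in the fed and 2.22, 2.06, 2.62 and 2.01 CPM in the fasted young libraries (log2 0.55 ± 0.17, adjusted p = 0.0162). That of ins-26 was lost without young fed library 1 or young fasted library 3 (log2 0.45 to 0.47, adjusted p = 0.0554 to 0.0611). None of the fasted libraries of these genes overlapped the fed ones.

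At day 8 ins-10 stood at 0.478, 0.315, 0.711 and 0.832 CPM in the fed and 0.681, 0.437, 0.735 and 0.630 CPM in the fasted day 8 libraries. Levels of ins-24 were 1.18, 1.07, 1.70 and 1.86 CPM in the fed and 1.47, 1.41, 1.74 and 1.74 CPM in the fasted day 8 libraries. Levels of ins-26 were 1.43, 1.24, 1.11 and 1.16 CPM in the fed and 1.38, 1.08, 1.42 and 1.22 CPM in the fasted day 8 libraries. Fed and fasted day 8 libraries of all 3 overlapped, and fasting changed none of them by the test. Fed animals held more ins-10 at day 8 (log2 0.93 ± 0.33, adjusted p = 0.0233). The call was lost without young fed library 3 or 4 or day 8 fed library 3 or 4, without day 8 libraries 3 and 4 or under a fit of the 8 libraries compared alone (log2 0.36 to 0.94, adjusted p = 0.0539 to 0.401). In fasted animals ins-24 (log2 -0.63 ± 0.22, adjusted p = 0.0177) and ins-26 (log2 -0.81 ± 0.17, adjusted p = 6.11e-04) were lower. The call of ins-24 was lost without young fasted library 2, without day 8 libraries 1 and 2 or under library totals alone (log2 -0.54 to -0.29, adjusted p = 0.0575 to 0.341). The difference between ages was, as log2, 0.69 ± 0.31, adjusted p = 0.113 for ins-24 and 0.95 ± 0.47, adjusted p = 0.151 for ins-10. That of ins-24 was called without day 8 libraries 1 and 2 or under the replicate block within each age or a term for day 8 libraries 3 and 4 (log2 0.67 to 0.87, adjusted p = 0.0263 to 0.0428). That of ins-10 was called without day 8 libraries 1 and 2 (log2 1.22, adjusted p = 0.0352). The gene ins-10 shares 74 exon bases with vps-39 on the other strand, which stood at 160 to 252 CPM by group mean, and whether counting used strand is not given in the sources used here.

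Also lower in fasted young adults were ins-32, ins-34 and ins-27. The gene ins-32 (WBGene00002115, chromosome II, 3802959 to 3803319) stood at 0.272, 0.230, 0.284 and 0.131 CPM in the fed and 0.0168, 0, 0 and 0.0709 CPM in the fasted young libraries, a log2 change of -3.24 ± 0.73, adjusted p = 0.00222 on 62 and 6 counts. At day 8 it stood at 0.108, 0.0711, 0.0738 and 0.0743 CPM in the fed and 0.136, 0.0956, 0.0498 and 0.220 CPM in the fasted day 8 libraries (log2 fasting change 0.64 ± 0.60, adjusted p = 1, log2 difference between ages -3.88 ± 0.95, adjusted p = 0.00661). It was lower at day 8 in fed (log2 -1.49 ± 0.59, adjusted p = 0.0374) and higher in fasted animals (log2 2.39 ± 0.75, adjusted p = 0.0103), and without fasted young library 4, which held 5 of the 6 counts, the latter was 4.21, adjusted p = 7.10e-04. The fed call was lost without young fed library 1, 2 or 3 or day 8 fed library 2, 3 or 4, without either set of day 8 libraries or under RLE scaling, library totals alone or no filter (log2 -1.51 to -0.97, adjusted p = 0.0525 to 0.164).

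The gene ins-34 (WBGene00002117, chromosome IV, 14106574 to 14107737) stood at 1.29, 1.67, 1.59 and 1.20 CPM in the fed and 0.924, 0.983, 0.624 and 0.667 CPM in the fasted young libraries (log2 -0.86 ± 0.21, adjusted p = 0.00372), with no overlap. Its day 8 values were 6.10, 6.84, 9.33 and 9.90 CPM in the fed and 7.48, 6.40, 7.44 and 9.15 CPM in the fasted day 8 libraries, higher than in young adults (log2 2.48 ± 0.20, adjusted p = 3.16e-08 fed and 3.26 ± 0.21, adjusted p = 2.12e-09 fasted). Its fasting response differed between ages by a log2 value of -0.78 ± 0.28, adjusted p = 0.0533. This difference was called without young fasted library 2 or day 8 fasted library 2, without either set of day 8 libraries or under the replicate block within each age, a term for day 8 libraries 3 and 4 or DESeq2 (log2 -0.95 to -0.65, adjusted p = 0.0045 to 0.0477). Its exons share 82 bases with nkcc-1 on the other strand, whose level was 175 ± 2.43 CPM in fed young and 125.3 ± 20.1 CPM in fed day 8 animals.

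The gene ins-27 (WBGene00002110, chromosome I, 14027236 to 14027588) stood at 3.17, 3.46, 3.50 and 2.10 CPM in the fed and 2.05, 2.00, 1.70 and 2.11 CPM in the fasted young libraries (log2 -0.64 ± 0.23, adjusted p = 0.0387), and its groups overlapped through fed library 4. The call was lost without young fed library 1, 2 or 3, young fasted library 1, 2, 3 or 4, day 8 fed library 3 or day 8 fasted library 3 or under library totals alone or no filter (log2 -0.67 to -0.44, adjusted p = 0.0524 to 0.211). In day 8 animals it stood at 1.16, 0.722, 1.47 and 1.61 CPM in the fed and 1.13, 1.04, 0.871 and 1.30 CPM in the fasted day 8 libraries, lower than in young adults (log2 -1.29 ± 0.24, adjusted p = 1.61e-04 fed and -0.85 ± 0.24, adjusted p = 0.00489 fasted), the latter not called under library totals alone (log2 -0.52, adjusted p = 0.11).

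Among the members that were close to 0 in young adults and present at day 8, ins-2 led. The gene ins-2 (WBGene00002085, chromosome II, 5988524 to 5989426) stood at 0.0639, 0.0432, 0 and 0 CPM in the fed and 0.134, 0, 0.0271 and 0.113 CPM in the fasted young libraries, on 7 and 18 counts. Its day 8 values were 5.00, 7.33, 16.8 and 16.5 CPM in the fed and 10.1, 9.28, 18.03 and 16.2 CPM in the fasted day 8 libraries. It was higher at day 8 (log2 8.68 ± 0.73, adjusted p = 4.19e-08 in fed and 7.55 ± 0.66, adjusted p = 5.16e-08 in fasted animals). Without day 8 libraries 3 and 4 the fed change was 7.80, adjusted p = 5.01e-10, and without fed young library 1 it was 9.47, adjusted p = 4.87e-07. Fasting did not change it by the test at either age.

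The gene ins-8 (WBGene00002091, chromosome IV, 9680337 to 9680941), next to ins-7, stood at 0, 0.0432, 0 and 0 CPM in the fed and 0.0336, 0, 0.0271 and 0.0142 CPM in the fasted young libraries, on 3 and 5 counts. Levels at day 8 were 1.35, 1.47, 1.95 and 1.74 CPM in the fed and 2.19, 1.86, 3.70 and 3.88 CPM in the fasted day 8 libraries. The fed day 8 level was 150-fold that of fed young adults, with a counting interval of 51.0 to 727 at a confidence level of 95%. In fasted animals the log2 change was 7.12 ± 0.57, adjusted p = 1.80e-08. At day 8 the fasted library was higher in all 4 numbered pairs, without a call (log2 0.83 ± 0.36, adjusted p = 0.821, and 0.79, adjusted p = 0.124 with the replicate block within each age).

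The gene ins-19 (WBGene00002102, chromosome II, 3126037 to 3126441) stood at 0, 0, 0 and 0.0328 CPM in the fed and 0.0336, 0, 0.0136 and 0.0284 CPM in the fasted young libraries, on 2 and 5 counts. Its day 8 values were 1.55, 1.01, 0.168 and 0.238 CPM in the fed and 0.736, 0.887, 0.0498 and 0.0800 CPM in the fasted day 8 libraries. Unlike ins-2, its day 8 libraries 1 and 2 lay above libraries 3 and 4. The fed day 8 level was 82.0-fold that of fed young adults with a counting interval of 22.5 to 680, and the log2 change in fasted animals was 4.38 ± 1.19, adjusted p = 0.00426. Without day 8 libraries 1 and 2 the fasted change was 1.77, adjusted p = 0.102.

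Of the members at low levels, 3 more were higher at day 8 in at least 1 feeding state. The gene ins-11 (WBGene00002094, chromosome II, 5556731 to 5557173), whose intestinal peptide acts in pathogen avoidance, stood at 0.112, 0.0432, 0.0540 and 0.0328 CPM in the fed and 0.0336, 0.113, 0.0271 and 0 CPM in the fasted young libraries. In day 8 animals it stood at 0.191, 0.386, 0.255 and 0.305 CPM in the fed and 0.177, 0.109, 0.336 and 0.120 CPM in the fasted day 8 libraries (log2 2.21 ± 0.62, adjusted p = 0.00553 fed and 2.15 ± 0.68, adjusted p = 0.0109 fasted). The fasted call was lost without day 8 libraries 3 and 4 (log2 1.77, adjusted p = 0.0664). The gene ins-36 (WBGene00002119, chromosome I, 11212307 to 11215094) stood at 0.0480, 0.0144, 0 and 0.0328 CPM in the fed and 0, 0.0567, 0 and 0.0993 CPM in the fasted young libraries. Levels at day 8 were 0.167, 0.152, 0.329 and 0.260 CPM in the fed and 0.695, 0.232, 0.299 and 0.280 CPM in the fasted day 8 libraries (log2 3.25 ± 0.84, adjusted p = 0.00316 fed and 3.22 ± 0.78, adjusted p = 0.00187 fasted). It shares 57 exon bases with Y53H1A.7 on the other strand, which was also higher at day 8 (log2 4.63 in fed animals, adjusted p = 8.89e-08). The gene ins-39 (WBGene00017668, chromosome X, 1343758 to 1344421) stood at 0, 0.0288, 0 and 0 CPM in the fed and 0, 0, 0 and 0 CPM in the fasted young libraries. Levels at day 8 were 0, 0, 0.195 and 0.134 CPM in the fed and 0.191, 0.0819, 0.162 and 0.120 CPM in the fasted day 8 libraries. In fasted animals it was at least 11.9-fold higher at day 8 against 3 counts over the young group, and called (adjusted p = 0.00806). With 2 counts in fed and 0 in fasted young libraries, it passed the filter on its day 8 libraries alone, so this call is not independent of the filter. Without day 8 libraries 3 and 4 it no longer passed the filter and was not tested. In fed animals the ratio was 13.5, with a counting interval of 3.53 to 114, and was not called (adjusted p = 0.0534). It was called without day 8 fed library 1 or 2, without day 8 libraries 1 and 2 or under RLE scaling or library totals alone (log2 3.42 to 4.30, adjusted p = 0.00147 to 0.0458).

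The genes ins-14 and ins-28 were lower at day 8 without a fasting call. The gene ins-14 (WBGene00002097, chromosome II, 6745435 to 6745814) stood at 0.240, 0.288, 0.162 and 0.279 CPM in the fed and 0.252, 0.491, 0.190 and 0.255 CPM in the fasted young libraries. In day 8 animals it stood at 0.120, 0.0610, 0.154 and 0.141 CPM in the fed and 0.123, 0.0819, 0.124 and 0.160 CPM in the fasted day 8 libraries (log2 -1.0 ± 0.39, adjusted p = 0.033 fed and -1.25 ± 0.39, adjusted p = 0.0107 fasted). The fed call was lost without young fed library 1, 2 or 4, day 8 fed library 1, 2 or 4 or day 8 fasted library 3 or 4, without day 8 libraries 1 and 2 or under RLE scaling, library totals alone, no filter, the replicate block over all libraries or DESeq2 (log2 -1.02 to -0.45, adjusted p = 0.0529 to 0.33). The fasted call was lost without young fasted library 2, without day 8 libraries 1 and 2 or under library totals alone (log2 -0.94 to -0.90, adjusted p = 0.0549 to 0.0997). The gene ins-28 (WBGene00002111, chromosome I, 14012369 to 14013629) stood at 1.17, 1.15, 1.09 and 1.26 CPM in the fed and 1.40, 1.72, 1.55 and 1.74 CPM in the fasted young libraries, with no overlap and no call (log2 0.45 ± 0.19, adjusted p = 0.0659). It was called without day 8 fed library 2, 3 or 4 or day 8 fasted library 3 or 4, without either set of day 8 libraries or under RLE scaling, library totals alone, counts divided by 2, a fit of the 8 libraries compared alone, the replicate block within each age, a term for day 8 libraries 3 and 4 or DESeq2 (log2 0.45 to 0.66, adjusted p = 0.00432 to 0.0489). Day 8 values were 0.873, 1.08, 0.738 and 0.758 CPM in the fed and 1.16, 0.969, 0.722 and 0.740 CPM in the fasted day 8 libraries, lower in fasted animals (log2 -0.84 ± 0.19, adjusted p = 0.00112) and uncalled in fed animals (log2 -0.44 ± 0.19, adjusted p = 0.0519). With the replicate block within each age, both its young fasting change (log2 0.45, adjusted p = 0.0308) and its fed change with age (log2 -0.45, adjusted p = 0.0261) were called. The fed change was called without day 8 fed library 2 or day 8 fasted library 1, without day 8 libraries 1 and 2 or under counts divided by 2, the replicate block over all libraries or within each age or a term for day 8 libraries 3 and 4 (log2 -0.56 to -0.43, adjusted p = 0.00903 to 0.0469).

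Called in no comparison of the fit of all libraries without a block were 6 tested members, ins-4, ins-5, ins-9, ins-29, ins-30 and ins-31. The gene ins-30 (WBGene00002113, chromosome I, 14034954 to 14036057) was the highest of them, at 2.25, 2.52, 2.78 and 2.61 CPM in the fed and 2.74, 2.89, 3.24 and 3.50 CPM in the fasted young libraries. At day 8 it stood at 1.49, 1.41, 2.63 and 2.47 CPM in the fed and 2.00, 1.54, 2.86 and 2.49 CPM in the fasted day 8 libraries. Its fasted library was higher in all 4 numbered pairs at day 8 (log2 0.15 ± 0.22, adjusted p = 1). With the replicate block within each age it was called lower at day 8 in fed (log2 -0.39, adjusted p = 0.0105) and fasted animals (log2 -0.51, adjusted p = 0.0021), and ins-29 in fed animals (log2 -0.70, adjusted p = 0.0312). Without day 8 libraries 3 and 4, ins-30 was at -0.79, adjusted p = 5.08e-04 fed and -0.82, adjusted p = 3.65e-04 fasted. By the same omission ins-29 was at -0.89, adjusted p = 0.0384 fed and -0.97, adjusted p = 0.0335 fasted. The young fasting change of ins-30 was called without day 8 libraries 1 and 2 or under a fit of the 8 libraries compared alone (log2 0.30, adjusted p = 0.0342 to 0.0371). The activating peptide gene ins-9 ranged from 0 to 0.394 CPM, and without fasted young library 2 it was called lower in fasted young adults (log2 -2.51, adjusted p = 0.0106). Levels of ins-29 ranged from 0.218 to 0.738 CPM and those of ins-31 from 0.0328 to 0.227 CPM. The 6 untested members (ins-12, ins-13, ins-15, ins-16, ins-21 and ins-25) had 10 to 91 counts over all libraries and a group mean of at most 0.139 CPM. They did not pass the filter in the fit of all libraries and were not tested there. The fit with no filter included them, as some fits with fewer libraries could, and those values are not given. All day 8 libraries lay above all young ones for ins-16 in fasted animals and for ins-25 in fed animals. The fasted day 8 level of ins-16 was 6.02-fold that of fasted young adults, on 3 and 23 counts, with a counting interval of 1.82 to 31.3. For ins-15 the fasted level in young adults was 4.85-fold the fed one (3 and 14 counts, interval 1.35 to 26.3), and the fasted young level was 5.95-fold the fasted day 8 one (14 and 3 counts, interval 1.66 to 32.3), while at day 8 the fed level was 3.98-fold the fasted one (17 and 3 counts, interval 1.15 to 21.2), with overlapping libraries in all 3 comparisons.

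All 39 members are annotated as protein coding, and many sit in tight runs. There were 10 on chromosome I, 15 on II, 5 on III, 4 on IV, 3 on V and 2 on X. Taking neighbours whose starts lie within 20000 bases, 25 members fell into 7 runs of 2 to 7 genes and 14 stood alone. Genes of the longest runs moved in different directions, while those of some shorter runs moved alike. In the run of 6 on chromosome II (5988524 to 6011321), ins-2, ins-3 and ins-20 were higher in fed day 8 than in fed young animals, ins-6 was lower, and ins-4 and ins-5 were not called. In the run of 7 on chromosome I (14012369 to 14037777), ins-24 and ins-26 rose and ins-27 fell in fasted young adults, while ins-28, ins-29 and ins-30 were not called and ins-25 was not tested. In the pair on chromosome IV (9680337 to 9682845), both ins-7 and ins-8 were higher at day 8. In the run on chromosome III (10023752 to 10028697), ins-22 and ins-23 were both higher at day 8, and ins-21 was not tested. The summed exon length of members ran from 284 to 955 bases, with a median of 429.

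**Figure D5:**
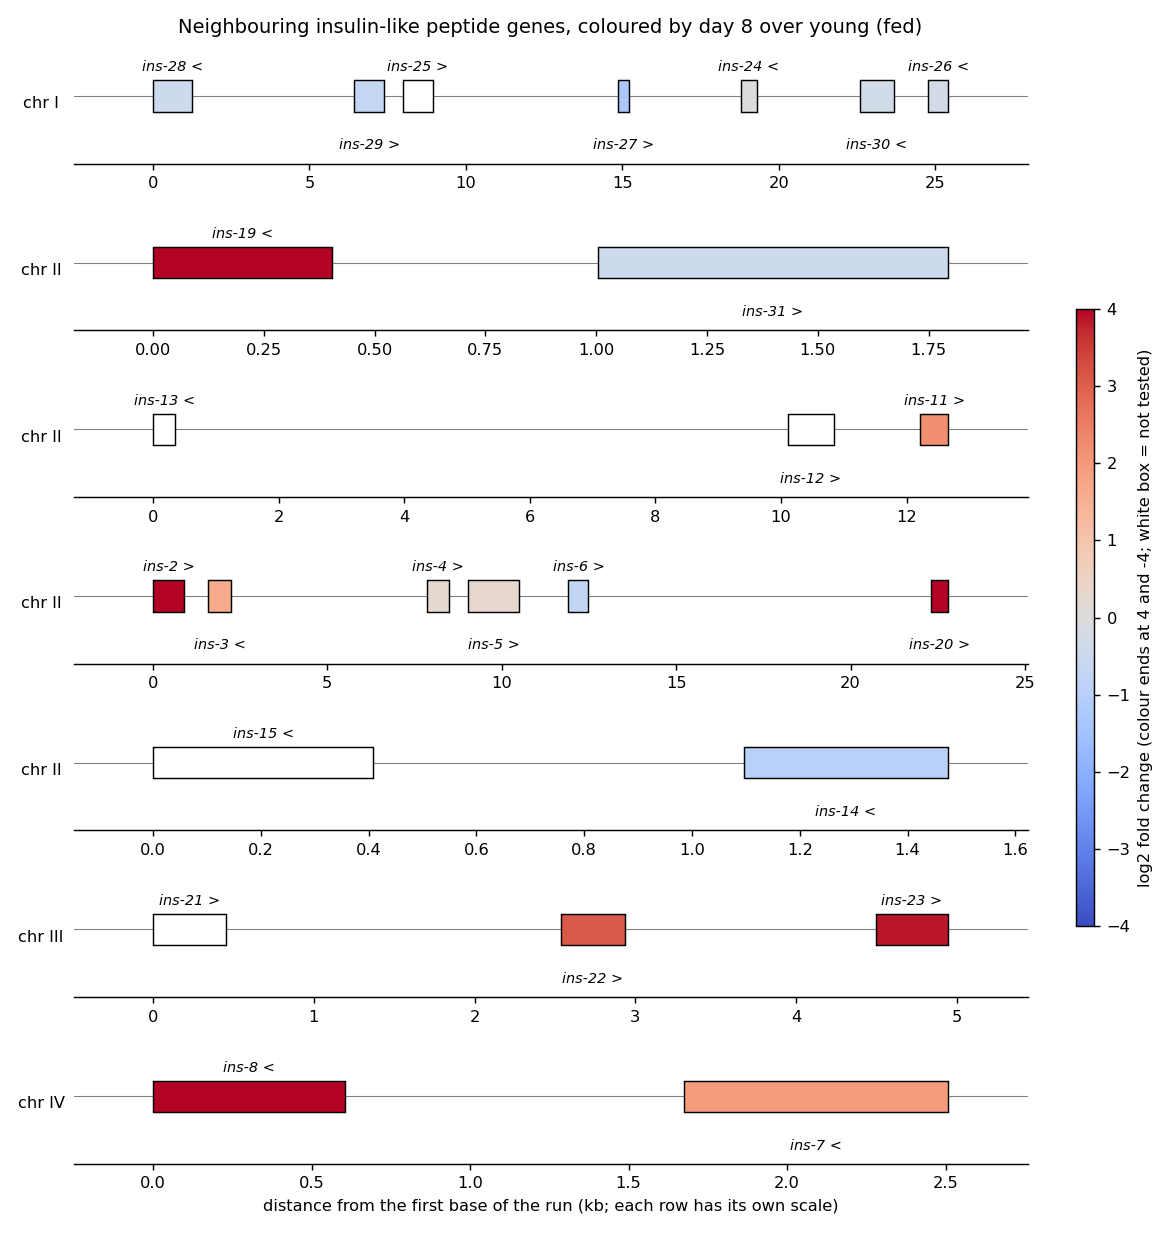
The 7 runs of neighbouring members drawn in kb from the first base of each run, each row on its own scale, with the strand as an arrowhead beside each name and the log2 fold change of fed day 8 over fed young animals as colour, which ends at 4 and -4. In the run that starts with ins-2, red boxes (ins-2, ins-3 and ins-20) and a blue box (ins-6) lie within 22.8 kb.

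Some genes that receive and pass on the signal were also called in fasted young adults. Of 8 genes for the receptor and its kinases, 3 rose, 1 fell and 4 were not called, where 21.2% of all genes rose and 21.1% fell. The receptor gene daf-2 stood at 189, 190.4, 192 and 184 CPM in fed and 432, 444, 426 and 439 CPM in fasted young libraries (log2 1.20 ± 0.10, adjusted p = 1.05e-07). At day 8 it stood at 350.2, 325, 283 and 255 CPM fed and 321, 310.5, 248 and 249 CPM fasted (log2 -0.11 ± 0.10, adjusted p = 1), with libraries 1 and 2 above libraries 3 and 4. The insulin receptor substrate gene ist-1 stood at 7.23, 6.32, 6.78 and 7.06 CPM in fed and 27.3, 26.4, 26.3 and 27.03 CPM in fasted young libraries (log2 1.97 ± 0.09, adjusted p = 1.64e-10). Both responses differed between the ages (log2 1.31 ± 0.14, adjusted p = 4.12e-06 for daf-2 and 1.90 ± 0.13, adjusted p = 2.83e-08 for ist-1). The AKT kinase gene akt-2 rose (log2 1.05 ± 0.09, adjusted p = 1.06e-07) and the kinase gene pdk-1 fell (log2 -0.37 ± 0.14, adjusted p = 0.0437).

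The PI3 kinase gene age-1 stood at 116, 115, 114 and 103 CPM in fed and 121, 120.3, 119.2 and 118.5 CPM in fasted young libraries, without a call (log2 0.10 ± 0.13, adjusted p = 0.556). The transcription factor gene daf-16 stood at 200.3, 201, 213 and 226 CPM fed and 233, 241, 244 and 241 CPM fasted (log2 0.19 ± 0.09, adjusted p = 0.104). At day 8 neither changed with fasting by the test, age-1 at log2 -0.09 ± 0.13, adjusted p = 1 and daf-16 at log2 -0.07 ± 0.09, adjusted p = 1. Of 5 genes at the pathway's output, 1 rose in fasted young adults (smk-1, a DAF-16 cofactor, log2 0.29 ± 0.05, adjusted p = 3.08e-04) and 2 fell, the 14-3-3 genes ftt-2 (log2 -0.33 ± 0.10, adjusted p = 0.0114) and par-5 (log2 -0.29 ± 0.08, adjusted p = 0.0114). There 21.2% of all genes rose and 21.1% fell.

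Of 6 genes that mature the peptides, 4 rose, 0 fell and 2 were not called in fasted young adults, where 21.2% of all genes rose. Those that rose were the proprotein convertases kpc-1 (log2 2.40 ± 0.17, adjusted p = 2.01e-08) and egl-3 (log2 0.77 ± 0.09, adjusted p = 3.63e-06), the carboxypeptidase egl-21 (log2 0.62 ± 0.09, adjusted p = 4.59e-05) and the convertase chaperone sbt-1 (log2 0.66 ± 0.13, adjusted p = 6.47e-04). At day 8 fasting changed 0 of 6. With age, 2 of 6 were higher and 2 lower in fed animals, where 30.8% and 34.7% of all genes were. In fasted animals 5 of 6 were lower at day 8 and 0 higher, where 36.9% of all genes were lower, with the largest change in the convertase gene aex-5 (log2 -2.20 ± 0.10, adjusted p = 2.43e-11). Of 7 genes for dense core vesicles and release, 2 rose in fasted young adults, where 21.2% of all genes rose. They were ida-1 (log2 1.09 ± 0.18, adjusted p = 1.89e-04) and cccp-1 (log2 0.47 ± 0.17, adjusted p = 0.0335). In the same libraries 0 of 10 neuron markers rose and 1 fell. Their summed level was 254 to 260 CPM in fed and 268 to 274 CPM in fasted young libraries, without overlap. The part of neurons in these changes was not tested.

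Predicted proteins with an extracellular domain like that of the receptor, the L domain family, make up the next list. Of 57 listed genes, 56 were in the table and 26 were tested, of which 10 rose and 0 fell in fasted young adults, where 21.2% of all genes rose and 21.1% fell. Those with the smallest adjusted p were irld-8 (log2 1.31 ± 0.15, adjusted p = 4.37e-06), irld-6 (log2 0.88 ± 0.19, adjusted p = 0.00154), irld-14 (log2 0.99 ± 0.22, adjusted p = 0.00175) and irld-24 (log2 3.00 ± 0.68, adjusted p = 0.00219). In fasted animals 3 were higher and 10 lower at day 8 (31.2% and 36.9% of all genes, and 30.8% and 34.7% of all genes in fed animals). In fed animals 12 were higher and 9 lower, and the smallest adjusted p belonged to the lower irld-8 (log2 -3.84 ± 0.17, adjusted p = 3.66e-11), irld-14 (log2 -5.16 ± 0.27, adjusted p = 2.19e-10), irld-3 (log2 -6.25 ± 0.67, adjusted p = 5.82e-07) and irld-4 (log2 -5.79 ± 0.62, adjusted p = 5.97e-07). Of 5 sperm markers, 2 rose and 0 fell in fasted young adults, with sums of 186 to 193 CPM fed and 315 to 320.3 CPM fasted, which did not overlap. All 5 were lower at day 8 in both states, with sums of 1.22 to 5.49 CPM. Their part in the changes of the L domain genes was not tested.

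Of 6 genes known to be raised by DAF-16, 5 rose in fasted young adults and 0 at day 8, where 21.2% and 0.151% of all genes rose. This list was chosen with earlier results of these data known, so its counts are not independent evidence. The 5 that rose were mtl-1 (log2 6.36 ± 0.36, adjusted p = 9.90e-10), nnt-1 (log2 5.10 ± 0.24, adjusted p = 1.23e-10), dod-3 (log2 4.25 ± 0.31, adjusted p = 1.80e-08), hil-1 (log2 2.81 ± 0.13, adjusted p = 1.35e-10) and hsp-12.6. The superoxide dismutase gene sod-3, singled out here after its value was seen, was not called (log2 -0.14 ± 0.22, adjusted p = 0.629). For the 5 that rose the response also differed between the ages, and in fed animals all 5 were higher at day 8 than in young adults. In fasted animals 0 of 6 were higher and 4 lower at day 8, with a median log2 fold change of -1.17. Of all genes, 30.8% were higher at day 8 in fed animals, and 31.2% were higher and 36.9% lower in fasted animals. Levels of sod-3 were lower at day 8 in both states (log2 -1.50 ± 0.23, adjusted p = 2.88e-05 fed and -1.19 ± 0.23, adjusted p = 2.57e-04 fasted).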

How the data were processed

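PolyA RNA of whole animals was taken in Qiazol, purified with RNeasy columns and made into libraries with the Kapa mRNA HyperPrep kit, per the labels' protocols. The authors deposited 1 table of expected counts per gene, named so from its values, which are not whole. Per the submitters' processing notes, DESeq and the build WBcel235 were used. The sources used here name no aligner, counter or strand setting.

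Counts were rounded, and edgeR's filterByExpr on the 4 groups kept 17844 of 21882 genes. All 16 libraries were scaled by TMM and fitted together with edgeR 4.0.16 (R 4.3.3, limma 3.58.1) by the quasi-likelihood test, without a replicate block. The 5 contrasts were fasting at each age, the young response minus the day 8 response, and day 8 minus young in each feeding state. Adjustment was by Benjamini-Hochberg over all tested genes, with a threshold of 0.05. SEs are the fold change divided by the root of the F value. The script was tested on simulated counts. Symbols and positions come from the WBcel235 annotation, release 115. No 2 libraries agreed within sampling noise. Intervals and floors of 3 counts cover counting error only.

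Same-numbered fed and fasted libraries deviated together at day 8 (correlations of 0.421, 0.55, 0.329 and 0.564 for numbers 1 to 4) but not in young adults (-0.00458 to 0.0399). At day 8 only numbers 2 and 4 had their own number as best partner, number 1 matched best with 2 and number 3 with 4, as in the split of libraries 1 and 2 from 3 and 4. By the rule that every correlation exceed 0.1, the numbers were taken as pairs at day 8 from the data, not from the labels, and the blocked value stands beside results whose call it changes. DESeq2 1.42.0, other scalings, other filters and omitted libraries were tried as alternatives.

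The members and gene lists were chosen with earlier results of these data known. Members whose mean reached 1 CPM in a group, or that were called in a contrast, are given by library (30 of 39), and others by ranges. Other pathway genes are given as counts, with values for daf-2, daf-16, age-1 and ist-1 and up to 4 genes per list with the smallest adjusted p. A further gene of that rule is not reported here.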

Additional observations from a re-analysis of the deposited data

Results flagged for a closer look

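The fasting response of 6 members differed between young and day 8 animals by edgeR's quasi-likelihood test of the difference itself. On the log2 scale, young minus day 8, these differences were 0.81 (0.8072) for ins-17, 2.32 (2.323) for ins-23, 2.19 (2.189) for ins-37, -3.88 (-3.877) for ins-32 and -0.88 (-0.8801) for daf-28. The fitted difference of ins-20 was 9.38 (9.381). It depends on the prior count, since fed young libraries held 0 counts.

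In 10 of 120 groups of 4 libraries, 1 library lay apart from the other three by Dixon's criterion, where chance gives about 1 in 20. In fasted young adults these were the highest library of ins-1 (2.199 CPM), the highest of ins-18 (2.252 CPM) and the lowest of daf-28 (2.498 CPM). In fed young adults they were the highest library of ins-7 (1.477 CPM), of ins-8 (0.04321 CPM), of ins-19 (0.03282 CPM) and of ins-39 (0.02881 CPM). The last 3 rest on at most 3 counts. At day 8 they were the highest fed library of ins-6 (1.931 CPM), the highest fed library of ins-32 (0.1076 CPM) and the highest fasted library of ins-36 (0.695 CPM).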

How the results depend on the processing

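No called member changed direction under any other scaling, filter or tool run, and the day 8 fasting counts stayed at 0 higher and 0 lower under every setting tried. The single reversed value was ins-17 with age in fed animals, which was -0.12 and not called, and 0.25 (0.2494, adjusted p = 0.0235) without day 8 libraries 1 and 2. Sign changes of values called in neither fit were not counted as reversals. Leaving out both libraries 1 and 2 or 3 and 4 of day 8, and the block in day 8 libraries alone, were chosen after seeing the data. The cause of the differences below was not tested.

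For fasting in young adults (9 higher, 5 lower), 14 rose with a term for day 8 libraries 3 and 4, 14 without these libraries and 15 without day 8 libraries 1 and 2. Each count is over the members that passed the filter of that fit, so members can enter or leave it. Each of these omissions added at least 1 member that was untested in the fit of all libraries and is not named here. Over all genes 3790 rose without the term and 5965 with it. Without libraries 3 and 4, 6147 of all genes rose, and without libraries 1 and 2, 6251. Library totals alone gave 3 members lower, and 2582 of all genes against 3767. For the difference between responses (4 higher, 2 lower), the replicate block within each age gave 9 and 4, the term for libraries 3 and 4 gave 9 and 4, leaving out libraries 3 and 4 gave 7 and 4, and leaving out 1 and 2 gave 7 and 4. On the lower side, library totals alone gave 1, counts divided by 2 gave 1 and DESeq2 gave 4. With counts divided by 2, ins-32 no longer passed the filter, and the call of daf-28 stayed. Of all genes 2396 were higher and 2254 lower without a block. Leaving out libraries 3 and 4 gave 3639 and 4336 of all genes, and leaving out 1 and 2 gave 4476 and 4355. On the lower side, library totals alone gave 1699 of all genes, counts divided by 2 gave 2500 and DESeq2 gave 2718. For age in fed animals (7 lower), library totals alone gave 3, the term 11 and leaving out libraries 3 and 4 gave 11. Of all genes 6184 were lower there, and the same alternatives gave 4118, 7464 and 6872. For age in fasted animals (10 lower), library totals alone gave 4, and 5045 of all genes against 6585. Leaving out 1 library at a time gave 8 to 10 higher and 3 to 5 lower for fasting in young adults, 4 to 5 higher and 1 to 4 lower for the difference, 12 to 14 and 5 to 8 for age in fed animals, and 11 to 13 and 7 to 10 in fasted animals. The lowest lower counts came without fasted young library 3 (3 lower) and without fasted day 8 library 3 or 4 (1 lower each), and the highest difference count without fasted day 8 library 2 (4 lower).

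The replicate block over all libraries gave 9 and 5 for fasting in young adults, 5 and 3 for the difference, 13 and 7 for age in fed and 13 and 11 in fasted animals. The blocked values within each age that changed a member's call are given with that member, singly or within a range over alternatives, and the block within each age changed no other call. Members below about 0.1 CPM rest on few counts, which limits what can be detected for them.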
